A study of Mus musculus with 2 samples.

Results

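The regions described here are the POU5F1 peaks at promoters in mouse embryonic stem cells. They are the peaks of the authors' whole-series list on the mm9 genome build whose centre lay within 1 kb of any annotated transcript start (GENCODE M1, chromosomes 1 to 19 and X). The rule used position only, and it took 581 of 5515 peaks, or 10.5% (95% interval 9.74 to 11.4%). The data are chromatin immunoprecipitation followed by sequencing (ChIP-seq) with an antibody against POU5F1 in E14TG2a.4, an established male embryonic stem cell line of strain 129/Ola. There was 1 group with 2 biological replicates and no other genotype, treatment or time. The mm9 lists held 1330 peaks for replicate 1 and 6324 for replicate 2. Read depth is unknown, as the lists give no counts.

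POU5F1, also called OCT4, is a transcription factor of pluripotent cells with a DNA-binding domain made of a POU-specific part and a POU homeodomain. It binds an octamer alone, a joined SOX and POU element together with SOX2, and palindromic sites as a dimer (the MORE and PORE elements). Promoters of protein-coding genes in mammals are often rich in CpG dinucleotides. The genes of the spliceosomal small nuclear RNAs (snRNAs) have compact promoters with a distal element upstream of the start in which an octamer is bound by POU2F1, also called OCT1, a relative of POU5F1.

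Of the 581 peaks, 425 had only protein-coding starts within 1 kb, 126 only non-coding starts (21.7%) and 30 both. They lay at 645 annotated genes, 484 of them coding. The nearest start belonged to a coding gene for 437 peaks, an snRNA gene for 44, a long intergenic RNA for 31, another processed transcript for 25, a pseudogene for 14, a small nucleolar RNA (snoRNA) gene for 13, a ribosomal RNA gene for 7, a microRNA gene for 5 and another small RNA gene for 5. For 152 of the 437 peaks nearest a coding start (34.8%), the peak centre lay over 1 kb inside the outermost start of that gene. At these peaks the nearest start was therefore not the outermost one.

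The sequences below are stretches of 8 promoters chosen because they show the arrangement that recurred at the strongest promoter peaks, an inverted pair of POU sites. The capitals mark the sites ATGNAT and ATNCAT, separated by 0 to 2 bases, with at most 1 mismatch over their 10 fixed letters. All sequences are from mm9, 5′ to 3′, on the strand given, and element positions are relative to the peak centre. The 8 were picked for display after their letters had been seen, partly for the letters CTCATGAAT, so how often these recur among them is a product of the choice. Their share over all windows is given with the elements.
Vamp1, chr6:125165215-125165256, plus strand: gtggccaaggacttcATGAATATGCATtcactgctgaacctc
Rnf169, chr7:107129008-107129049, minus strand: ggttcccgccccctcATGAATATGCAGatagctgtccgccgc
Crlf2, chr5:109987086-109987127, minus strand: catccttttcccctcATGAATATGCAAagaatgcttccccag
Ell, chr8:73063104-73063146, plus strand: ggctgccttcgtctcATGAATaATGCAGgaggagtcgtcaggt
Zfp384, chr6:124958779-124958821, plus strand: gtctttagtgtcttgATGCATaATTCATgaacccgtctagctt
2310028H24Rik, chr4:41516594-41516636, minus strand: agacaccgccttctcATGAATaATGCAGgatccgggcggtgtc
Hormad2, chr11:4341198-4341239, plus strand: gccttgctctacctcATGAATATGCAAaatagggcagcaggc
Clstn2, chr9:97933677-97933718, minus strand: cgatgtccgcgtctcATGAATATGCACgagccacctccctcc

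A second set shows the composite SOX-POU element, which was searched with up to 2 mismatches. The 5 promoters below carried it at peaks present in both replicate lists, and the capitals mark the element.
Igfbpl1, chr4:45828565-45828619, plus strand: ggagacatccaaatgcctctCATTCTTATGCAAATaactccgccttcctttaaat
Ttyh1, chr7:4075966-4076020, minus strand: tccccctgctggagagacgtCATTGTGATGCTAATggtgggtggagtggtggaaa
Nrarp, chr2:25036202-25036256, plus strand: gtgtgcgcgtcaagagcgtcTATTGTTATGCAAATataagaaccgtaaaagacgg
Nanog, chr6:122657411-122657465, minus strand: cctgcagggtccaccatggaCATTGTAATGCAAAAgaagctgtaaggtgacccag
Hnrnpu, chr1:180268375-180268429, plus strand: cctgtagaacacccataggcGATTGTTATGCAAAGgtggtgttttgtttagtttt
The Igfbpl1 and Nrarp elements end in the exact octamer ATGCAAAT, and the other 3 do not.

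The peaks gathered just upstream of coding starts and just downstream of snRNA starts. Among peaks nearest a coding start, 97 centres lay in the 100 bp before the start and 50 in the 100 bp before that, against 35 in the first 100 bp after the start and 9 in the next 100 bp. Over all 581, 351 centres were upstream of the nearest start (60.4%, 95% interval 56.3 to 64.4%) and 230 downstream. Of the 455 peaks with a coding start within 1 kb, 300 were upstream (65.9%, 61.4 to 70.3%), and of the 44 nearest an snRNA start, 2 (4.55%). The centre was within 100 bp of a start in 168 peaks, within 250 bp in 291 and within 500 bp in 420. The peak interval covered a start in 262 cases (45.1%), and in 39 of the 44 snRNA cases (88.6%).

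**Figure D1:**
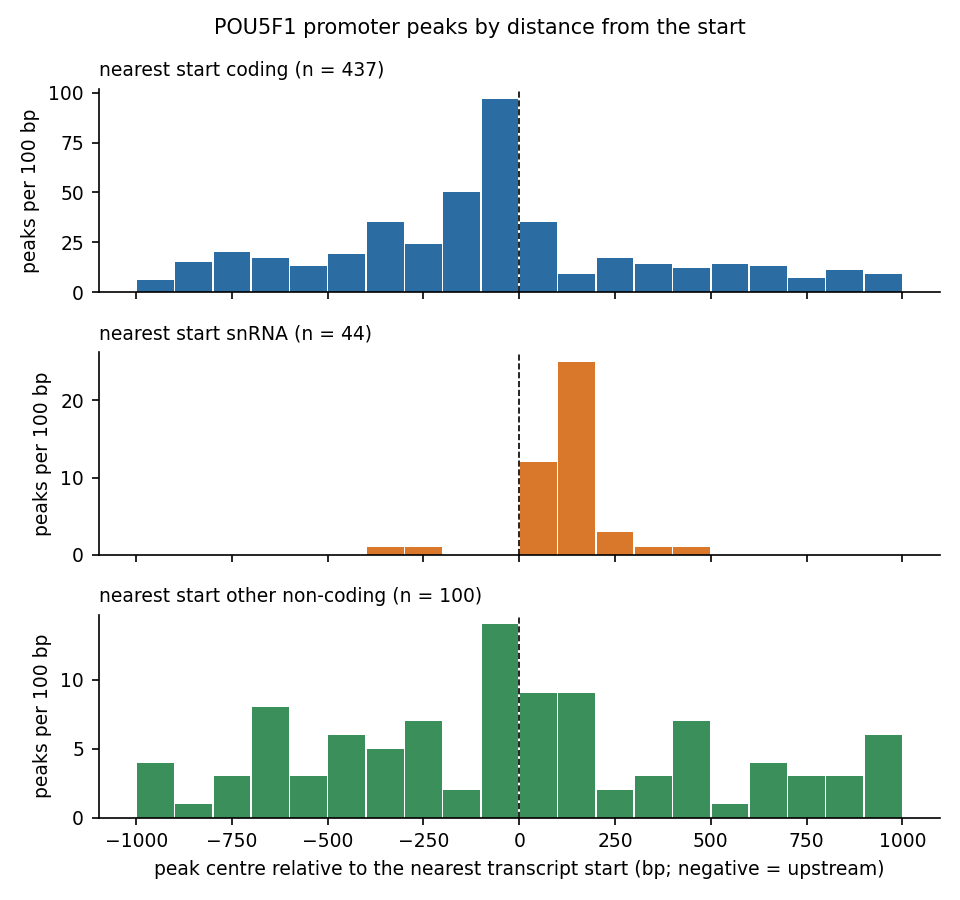
Peaks per 100 bp by the position of the peak centre relative to the nearest transcript start, in bp with negative values upstream, in panels by the type of that start. For coding starts the highest bars stand at and just before the start, with 97 peaks in the last 100 bp, while the peaks nearest snRNA starts stand after it.

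By the annotation, 200 centres lay outside genes (34.4%), 229 in introns (39.4%), 64 in untranslated regions of exons, 20 in coding sequence, 54 in exons of non-coding genes and 14 in other exons of coding genes. The nearest start was on the plus strand of the genome for 307 peaks (52.8%). Starts of genes on both strands lay within 1 kb of 69 peaks (11.9%). Of the centres, 27 (4.65%) lay between a minus-strand start and a plus-strand start of a divergent pair, counting any annotated start within 1 kb. The share of peaks at promoters was highest on chromosome 11, at 60 of 350 (17.1%), and lowest on chromosome 16, at 14 of 194 (7.22%).

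Promoter peaks had about the same signal as the other peaks of the list. The signal is the authors' own value per peak, on an unstated scale, and was compared only within 1 list. Its median was 5.58 in the 581 promoter peaks (quartiles 4.70 and 7.05, range 2.93 to 32.6) and 5.58 in the 4934 others (quartiles 4.70 and 6.94, range 2.4 to 29.07). The strongest peak of the whole list was a promoter peak, and promoter peaks made up 2 of the 10, 10 of the 50, 14 of the 100 and 50 of the 500 strongest. The median was 6.46 for peaks nearest an snRNA start (range 3.82 to 11.75) and 5.87 for peaks with only non-coding starts within 1 kb.

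Support by the replicate lists was also close to that of the whole list. A peak counted as present in a replicate when it overlapped a peak of that replicate's list by at least 1 bp. Of the promoter peaks, 144 were in the replicate 1 list (24.8%, against 22.7% of all 5515 peaks) and 514 in the replicate 2 list (88.5%, against 86.7%). In both lists were 140 (24.1%, 95% interval 20.7 to 27.8%), against 21.9% of all peaks. Another 374 overlapped the replicate 2 list alone, 4 the replicate 1 list alone and 63 no peak of either (10.8%, against 12.6% of the other peaks). The replicate 1 list is the shorter one, and the part of its length in these shares was not tested. The whole-series list was made from the same libraries, so presence in a replicate list is no independent test of a peak.

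Peaks in both lists were the stronger ones. Their median signal was 8.22 (range 5.23 to 32.6), against 5.29 for replicate 2 only (3.19 to 10.28) and 4.41 for neither (2.93 to 5.78). The signal ranges of peaks in both lists and in neither overlapped only between 5.23 and 5.78. The weakest in both lists were at 1110001A16Rik (5.58), Stx16 (5.29), a SNARE gene of the trans-Golgi network, and Zfp600 (5.23). The strongest in neither were at Gm2237 (5.78), Pglyrp1 (5.58), which encodes a peptidoglycan recognition protein, and Nufip2 (5.29). Of the 32-base words in the peak, 2.67% occurred at 1 place in mm9 for Zfp600 and 0% for Gm2237, so reads there could come from copies elsewhere.

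Over the 140 peaks in both lists, Spearman's rho between the 2 replicate signals was 0.613 and Pearson's r of log2 signal 0.817, against 0.605 and 0.716 over all 1209 such peaks. These describe 2 libraries across peaks, which are not independent replicates. Support was 109 of 455 at coding starts (24.0%), 31 of 126 with only non-coding starts (24.6%) and 19 of 44 nearest snRNA starts (43.2%). Among peaks with a coding start within 1 kb, both lists held 23 of 143 whose centre was within 100 bp of the nearest start (16.1%), 23 of 84 at 101 to 250 bp (27.4%), 35 of 101 at 251 to 500 bp (34.7%) and 28 of 127 at 501 to 1000 bp (22.0%). The share did not move in 1 direction with distance.

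**Figure D2:**
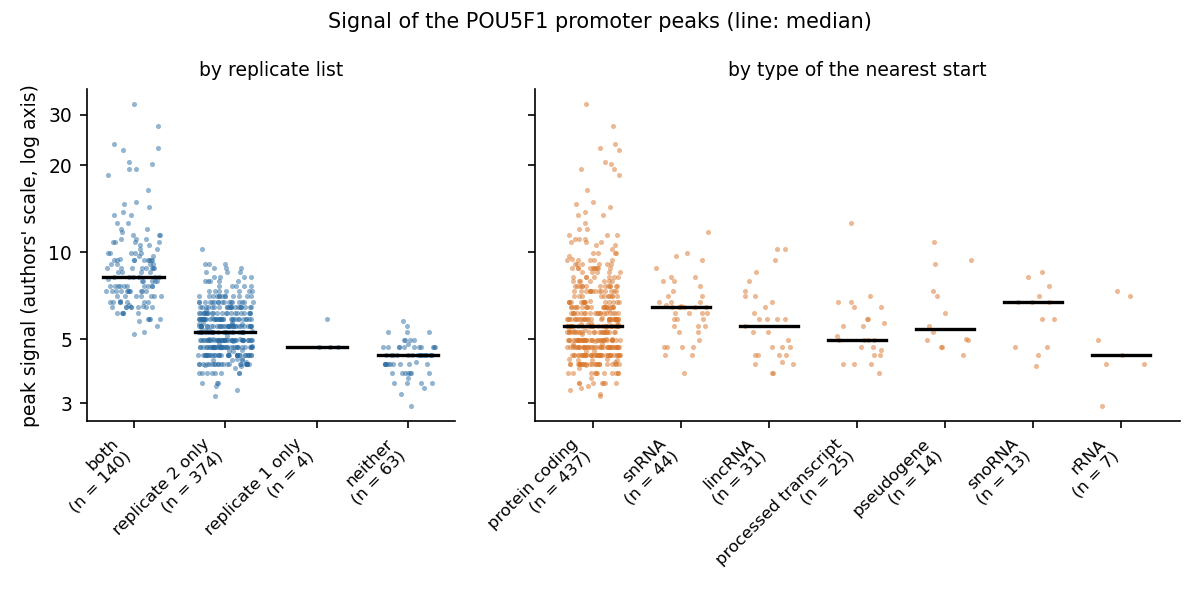
Signal of each promoter peak on the authors' scale (log axis), by replicate list on the left and by type of the nearest start on the right, with a line at each median. Peaks in both lists have a median of 8.22 against 5.29 for replicate 2 only and 4.41 for neither.

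**Figure D3:**
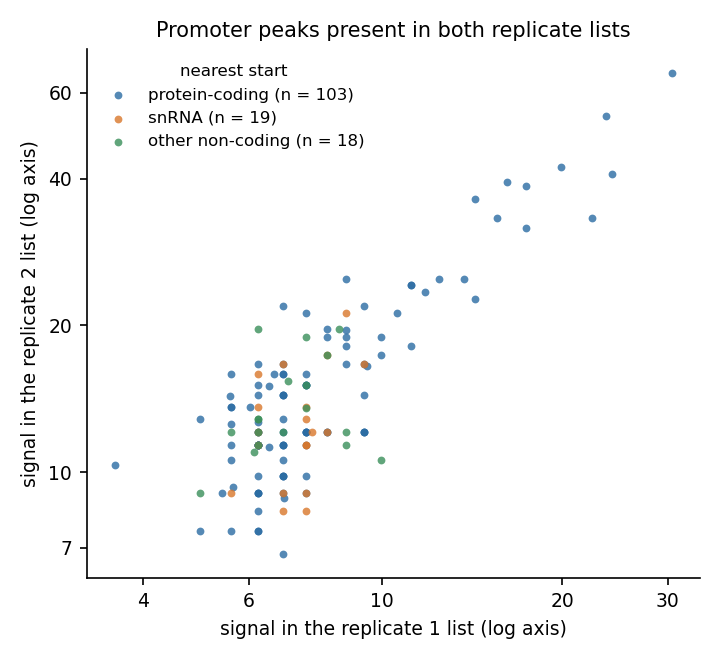
Signal in the replicate 1 list (horizontal) against signal in the replicate 2 list (vertical), both on log axes, for the 140 promoter peaks in both lists, coloured by the type of the nearest start. The highest point in both is the Vamp1 peak, at 30.48 and 65.75, and Spearman's rho over the points is 0.613.

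The strongest promoter peak, and the strongest of all 5515, lay 295 bp upstream of Vamp1 (chr6:125164950-125165598), which encodes a vesicle SNARE of synapses. Its signal was 32.6 in the whole-series list, 30.48 in that of replicate 1 and 65.75 in that of replicate 2. The next was 124 bp upstream of Rnf169, a ubiquitin-binding factor of the response to DNA double-strand breaks, at 27.31 (23.64 in replicate 1 and 53.66 in replicate 2). The peak at Crlf2, a receptor chain for the cytokine TSLP, was at 23.79 (24.26 and 40.81), with its centre 814 bp downstream of the start. Each of the 3 was far above the median of 5.58, and all hold the inverted pair printed above.

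Rif1, a factor of replication timing and DNA repair, had its strongest promoter peak 575 bp upstream at 22.91 (19.91 and 42.32) and a second of 7.64 at 715 bp downstream. Cnpy1 followed at 22.61 (17.42 and 38.55), 71 bp upstream. Abcg1, a transporter for cholesterol efflux, was at 20.56 (16.18 and 39.3). Acp6, a lysophosphatidic acid phosphatase, was at 20.26 (22.4 and 33.25), with the centre 424 bp downstream. These 4 promoters carry neither the pair nor any of the POU elements searched within 100 bp of their strongest peak's centre.

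Ell, an elongation factor of RNA polymerase II, had a peak of 19.38 (14.31 and 36.28) at 364 bp upstream, and the zinc finger gene Zfp384 one of the same 19.38 (17.42 and 31.74) at 346 bp upstream. The peak at 4930522L14Rik followed at 18.5 (15.55 and 33.25), 346 bp upstream, with 35.0% of its 32-base words at 1 place in mm9. Ebi3, a cytokine subunit of interleukin-27, was at 16.45 (14.31 and 22.67). Srrm4, a neural splicing regulator, was at 14.98 (12.44 and 24.94). The rest of the 20 strongest ranged down to 12.04 and included Rbm14 (14.68), an RNA-binding coactivator, Dido1 (14.39), Pipox (13.51), a peroxisomal oxidase, Wwtr1 (13.51), the Hippo pathway coactivator also called TAZ, and the Ras-family GTPase gene Rras2 (12.63). All 20 were in both replicate lists, 15 were upstream of the nearest start and 19 were nearest a coding start.

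Of these 20 peaks, 4 held one of the 4 POU elements: an octamer at Dido1, Pipox and 1700012B15Rik, with a composite element also at Pipox, and a MORE with 1 mismatch at Vamp1, which overlaps its inverted pair. The pair itself was present in 7, namely Vamp1, Rnf169, Crlf2, Ell, Zfp384, 2310028H24Rik and Wwtr1. Its pattern was written after the sequences of these 20 peaks had been seen, so its share among them is a description. With up to 1 mismatch it was present in 51 of 581 promoter windows (8.78%, 95% interval 6.61 to 11.4%), in 443 of 4934 windows of other peaks (8.98%, 8.2 to 9.81%) and in 1.08% of 45947 windows at coding starts. Its share was 35.0% in the 20 strongest promoter peaks and 40.0% in the 20 strongest other peaks. It was 17.0% in the 100 strongest promoter peaks, 7.07% in the 481 promoter peaks below and 22.0% in the 100 strongest other peaks. The 100 strongest promoter peaks include the 20 from which the pattern was written, so the 17.0% is partly a product of that choice.

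The pair had no spacer in 31 promoter windows (5.34%, against 4.95% of all peaks) and 1 base in 15 (2.58%, against 3.23%). It had 2 bases in 7 (1.2%, against 1.2%). With no spacer, its pattern takes in every MORE match, so the pair and MORE are not separate elements. Promoter peaks with the pair had a median signal of 6.75 against 5.58 without. Of them, 35.3% were in both replicate lists, against 23.0% of those without. Those with the pair include 7 of the 20 strongest promoter peaks, all in both lists, from which its pattern was written. Part of this contrast is therefore a product of that choice. In other peaks the medians were 5.87 and 5.44, and the shares in both lists 26.0% and 21.2%. The 9 letters CTCATGAAT were present on either strand in 13 promoter windows (2.24%), in 2.9% of other peaks and in 0.128% of coding starts. These letters were also chosen after the strongest promoter windows had been seen, and 4 of the 13 are among the 20 strongest. The promoter share is therefore partly a product of the choice. An element of any kind, the pair included, was found in 147 promoter windows (25.3%), against 27.5% of all peaks and 27.8% of other peaks.

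For the named POU elements, both strands were searched in 200 bp around the peak centre. At least 1 of octamer, composite, MORE and PORE was present in 119 promoter peaks, or 20.5% (95% interval 17.3 to 24.0%), against 21.9% of all peaks and 0.901% of windows at coding starts. The exact octamer ATGCAAAT was in 13.3% of promoter peaks and 13.4% of other peaks. The composite was in 7.23% (5.26 to 9.65%) and 9.55% (8.74 to 10.4%), MORE in 3.10% and 2.29%, and PORE in 1.20% and 1.82%. The composite and the octamer overlap where the composite ends in an exact octamer. In windows at coding starts these 4 were in 0.777%, 0.0479%, 0.0392% and 0.0784%, below the shares in the promoter peaks. The median distance of the element from the centre was 22 bp for the octamer, 29 bp for the composite and 17.5 bp for MORE, and all 18 MORE matches were within 50 bp.

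Promoter peaks with a POU element were in both lists in 21.0% of cases and those without in 24.9%, while in other peaks the shares were 27.5% and 20.0%. Of the 140 promoter peaks in both lists, 25 held an element (17.9%, 95% interval 11.9 to 25.2%), against 28.1% of the other peaks in both lists. For the octamer alone these shares were 7.86% and 14.9%, and for the composite 9.29% and 15.2%. No test was made of any of these differences, since peaks of 1 list share their libraries.

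The base composition of promoter peaks lay between that of other peaks and of promoters in general. Median GC content of the window was 50% in promoter peaks, 46% in other peaks and 59% at coding starts. The median ratio of observed to expected CpG was 0.424, 0.164 and 0.607. A ratio of at least 0.6 was found in 210 promoter peaks (36.1%), in 5.41% of other peaks and in 50.5% of coding starts. A POU element was present in 11.4% of these 210 and in 25.6% of the other promoter peaks.

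Sites of general promoter factors were searched in the same windows. The GC box GGGCGG, a site of the SP and KLF family, was in 16.0% of promoter peaks (95% interval 13.1 to 19.2%), 3.57% of other peaks (3.07 to 4.12%) and 38.6% of coding starts. With a coding start within 1 kb, its share was 31.5% for centres within 100 bp of a start and 5.51% at 501 to 1000 bp. The ETS site CCGGAAGT was in 2.58%, 0.263% and 3.76%. The CCAAT box was in 23.9%, 21.9% and 24.5%, and TATAAA in 8.43%, 8.17% and 6.66%. The SOX site CATTGT, which overlaps the composite, was in 12.7% of promoter peaks (10.1 to 15.7%) and 19.8% of other peaks (18.7 to 21.0%), against 6.24% of coding starts.

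**Figure D4:**
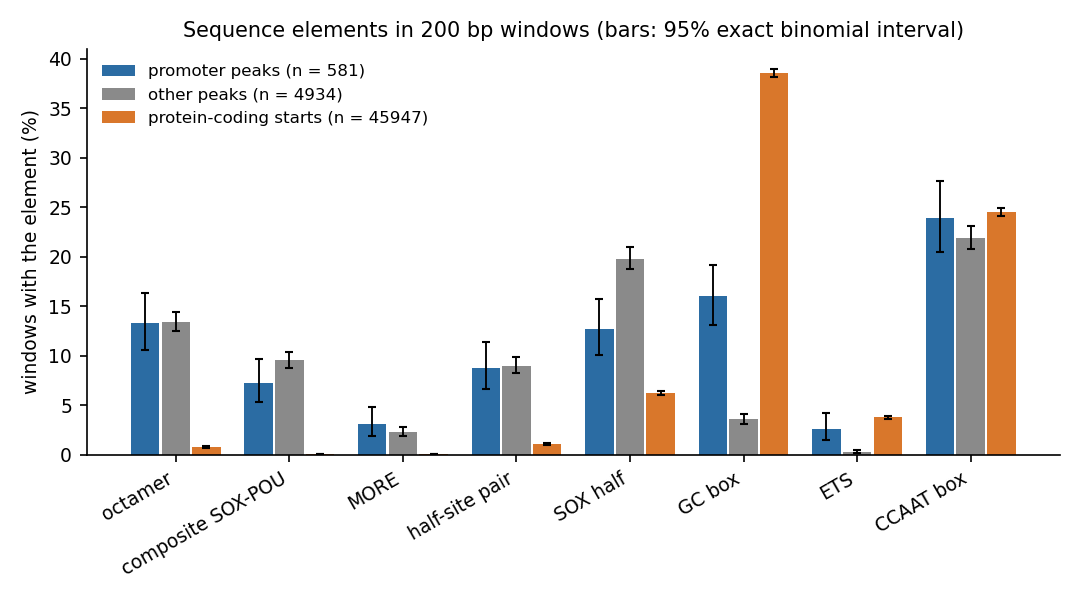
Share of 200 bp windows, in percent, that hold each sequence element, for promoter peaks, other peaks and protein-coding starts, with 95% exact binomial intervals as bars. The POU elements are about as frequent in promoter peaks as in other peaks, and the GC box is at 16.0% against 3.57% and 38.6%.

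Pluripotency genes were among the coding genes with a promoter peak. The gene lists were chosen with earlier results of these data known, so their shares are a description. Of 25 pluripotency regulators, 7 had one (28.0%, 95% interval 12.1 to 49.4%), against 2.18% of all 22208 coding genes (484). Besides Rif1 these were Nanog, a homeobox regulator, at 9.96 (9.44 in replicate 1 and 16.49 in replicate 2, 142 bp upstream), and Etv5, an ETS factor downstream of FGF signalling, at 9.47 (6.49 and 14.99, 872 bp upstream). Zscan10 (8.22), a zinc finger gene, the T-box gene Tbx3 (6.17), the nuclear receptor gene Esrrb (5.64) and Sall4 (4.99), a zinc finger regulator, were in the replicate 2 list only, with signals there of 11.34, 6.8, 9.83 and 8.31. The Nanog peak held a composite element and the Esrrb peak, 922 bp downstream of a start, an octamer. Pou5f1 and Sox2 had no promoter peak under the 1 kb rule.

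Of 31 genes known for expression in embryonic stem cells, 5 had a promoter peak (16.1%, 95% interval 5.45 to 33.7%). Fbxo15, an F-box gene, was at 8.81 and Tdh, threonine dehydrogenase, at 7.37, both in both lists. Dppa5a was at 7.64, Tex19.1 at 3.82 and the homeobox gene Otx2 at 4.11, the last in neither list. Of 24 Polycomb genes 3 had one (12.5%, 95% interval 2.66 to 32.4%). These were Phc1 at 7.64, in both lists and with an octamer, Jarid2 at 5.92 and Mtf2 at 4.41. The Jarid2 and Mtf2 peaks were in the replicate 2 list only. Of 20 trophectoderm genes 4 had one (20.0%, 95% interval 5.73 to 43.7%). Tcfap2a, which encodes AP-2 alpha, was at 7.64 in both lists. Cdx2, a trophectoderm homeobox gene, was at 4.7 in the replicate 1 list only, with an octamer and a PORE. Fgfr2 and Id2 were each at 4.7 in the replicate 2 list only.

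In the signalling lists, Tcf7l1, the Wnt effector also called TCF3, was at 9.4 and in both lists, while Apc, a scaffold of the beta-catenin destruction complex, was at 3.52 and in neither, making 2 of 24 Wnt genes. Socs2 (5.58), a feedback inhibitor of JAK-STAT signalling, and Ptpn11 (5.57), the phosphatase SHP2, were in the replicate 2 list only. They were the 2 of 17 LIF and JAK-STAT genes (11.8%, 1.46 to 36.4%). Etv5 and Fgfr2 were the 2 of 22 FGF and ERK genes (9.09%, 1.12 to 29.2%). Id2 (4.7) was the 1 of 25 Nodal, TGF-beta and BMP genes (4.0%, 0.101 to 20.4%). Of 39 Hox genes 2 had a peak (5.13%, 0.627 to 17.3%). These were Hoxb1 at 7.34, in both lists with a composite element, and Hoxd11 at 4.41, in neither. Of 26 neuroectoderm genes 3 had one (11.5%, 2.45 to 30.2%). These were Pax6 (6.75) and Neurog1 (6.46), in the replicate 2 list only, and Otx2, in neither. Of 22 mesoderm and primitive streak genes 2 had one (9.09%, 1.12 to 29.2%), Cdx2 and, in the replicate 2 list only, the paired-box gene Pax7 (4.41). Among the intervals of these signalling, Hox and lineage lists, only that of the neuroectoderm list lay above 2.18%.

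Housekeeping lists ranged from 0% to 10.4%, against 2.18% of all coding genes. Mitochondrial ribosomal proteins counted 5 of 76 (6.58%, 95% interval 2.17 to 14.7%), led by Mrpl21 at 7.34, and cytosolic ones 3 of 80 (3.75%, 0.78 to 10.6%). Of the cytosolic ones, Rps18 was at 6.17, in the replicate 2 list only and at a peak nearest a start of Vps52. Rpl4 at 5.29 and Rps7 at 4.11 were in neither list. Replication-dependent histones counted 7 of 67 (10.4%, 95% interval 4.3 to 20.3%). Hist4h4 was at 6.75 in both lists and the other 6, from 4.41 to 6.17, in the replicate 2 list only. Hist1h2ai and Hist1h2bl shared a peak, as did Hist1h2ac and Hist1h2bc, so the interval counts genes that are not independent. Splicing and RNA-binding genes counted 2 of 34, Hnrnpu at 9.69 in both lists and Srsf11 at 6.17. Zfp zinc finger genes counted 14 of 370 (3.78%), led by Zfp384. Of DNA methylation and H3K9 genes, Ehmt2, the methyltransferase G9a, was the 1 of 20, at 5.87 with an octamer. No promoter peak was found at 30 chromatin remodellers (upper 95% bound 11.6%), 34 cell cycle genes (10.3%), 20 p53 pathway genes (16.8%), 11 Myc family genes (28.5%), 22 endoderm genes (15.4%) and 20 feeder fibroblast genes (16.8%). All these bounds lie above the 2.18% of all coding genes, so a count of 0 does not set these lists apart.

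The 6 strongest peaks between divergent gene pairs, picked by signal, ranged from 6.46 to 13.8. The upper quartile of all 581 promoter peaks was 7.05. The peak between 2310028H24Rik and Dnaic1, an axonemal dynein gene, was at 13.8, and that between Gm16022 and Plekha4 at 12.63. The others of the 6 strongest were Ighmbp2 and Mrpl21 at 7.34, 4930581F22Rik and St3gal4 at 6.75, Efcab7 and Itgb3bp at 6.46, and Asxl1 and 2500004C02Rik at 6.46. The first 5 were in both replicate lists and the last in that of replicate 2 only. A centre counted as between 2 genes if any of their starts within 1 kb placed it so. By the nearest start, the centres at Ighmbp2, 4930581F22Rik and Efcab7 lay 13, 87 and 88 bp downstream. Of all coding genes, 18 had 2 or more promoter peaks, with 3 at Gm2237 and 3 at Shroom3.

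Among peaks with only non-coding starts within 1 kb, the strongest was 327 bp downstream of AC120136.3, an annotated snRNA gene, at 11.75 (8.71 and 21.16), and held a MORE element with 1 mismatch. Next were 4930461G14Rik at 10.28, with a composite element, and 4921531C22Rik at 10.28. Nespas, the antisense transcript of the imprinted Gnas cluster, was at 9.4, with 9.95 in replicate 1 and 10.58 in replicate 2. Gm16318 and AC127354.1 were also at 9.4. All 8 strongest of this kind, which include a U6 gene (9.98) and a U1 gene (9.69), were in both lists.

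The peaks at snRNA genes lay almost all downstream of the start. They were nearest to 18 of 206 annotated U1 genes, 8 of 51 U2, 2 of 43 U4, 7 of 10 U5, 2 of 935 U6, 1 of 116 U7, 1 of 5 U11, 1 of 1 U4atac and 1 of 28 U6atac, and to 0 of 6 U12 genes. The other 3 lay at snRNA genes annotated as AC120136.1, AC120136.2 and AC120136.3. These RNAs form the spliceosome, except U7, which acts in histone mRNA processing. All 35 peaks at U1, U2, U4 and U5 genes had their centre 0 to 300 bp downstream of the start, 24 inside the gene and 11 past its end, and the median over the 44 was 118.5 bp downstream. The sequences below show the U1 and U4 genes under such peaks, with the annotated gene in capitals.
U1, chr12:55820090-55820333, minus strand: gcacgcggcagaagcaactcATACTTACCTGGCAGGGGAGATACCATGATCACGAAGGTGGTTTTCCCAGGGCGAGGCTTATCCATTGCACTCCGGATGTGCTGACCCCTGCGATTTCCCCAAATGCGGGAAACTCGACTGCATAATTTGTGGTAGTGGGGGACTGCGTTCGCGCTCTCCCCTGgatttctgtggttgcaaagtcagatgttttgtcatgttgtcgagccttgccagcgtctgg
U4, chr5:115940243-115940463, plus strand: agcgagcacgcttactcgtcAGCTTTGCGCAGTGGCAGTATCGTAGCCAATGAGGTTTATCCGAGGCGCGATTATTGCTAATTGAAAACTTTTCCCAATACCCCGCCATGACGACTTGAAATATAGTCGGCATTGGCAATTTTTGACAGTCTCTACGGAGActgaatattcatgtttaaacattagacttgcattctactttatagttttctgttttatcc
The peak at this U1 gene was centred 161 bp after the start, at the end of a gene of 164 bp, with a signal of 9.69 (9.33 in replicate 1 and 16.63 in replicate 2). The peak at this U4 gene was centred 120 bp after the start with 7.05 (6.22 and 11.34). Of the 32-base words of the peak, 0% were unique in mm9 at the U1 gene and 82.5% at the U4 gene.

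The octamer of these genes lay elsewhere than the peak centre. None of the 44 windows around snRNA peak centres held an octamer or composite element (0%, upper 95% bound 8.04%). In the stretch 300 to 150 bp upstream of the start, an exact octamer on either strand was present in 8 of 8 U2 genes with a peak and 1 of 43 without, and in 4 of 7 U5 genes with a peak and 0 of 3 without. U4 genes had it in 1 of 2 and 0 of 41. U1 genes had an exact octamer in 1 of 18 with a peak, and an octamer with up to 1 mismatch in 14 of 18 (77.8%) against 33 of 188 without a peak (17.6%). The same stretch held an exact octamer at 0.76% of coding starts and one with up to 1 mismatch at 10.7%. The copies were taken as annotated, and whether those without a peak are expressed genes was not tested. The upstream octamers of 4 genes are printed below with the octamer, or its reverse complement, in capitals.
U2, chr11:101507450-101507497, minus strand: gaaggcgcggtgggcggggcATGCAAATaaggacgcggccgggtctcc
U4, chr5:115940016-115940063, plus strand: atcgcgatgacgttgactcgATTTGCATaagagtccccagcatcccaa
U11, chr4:131826316-131826363, minus strand: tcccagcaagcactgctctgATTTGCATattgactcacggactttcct
U4atac, chr1:120356042-120356089, minus strand: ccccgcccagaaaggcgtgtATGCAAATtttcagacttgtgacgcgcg
These octamers lay 215 to 233 bp before the start, and the corresponding peak centres 99 to 150 bp after it.

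The strongest U2 peak was at 9.4 (8.09 and 17.38) and the strongest U5 peak at 8.81 (8.09 and 12.09). U1 peaks had a median of 6.515 (range 4.41 to 9.69) and 11 of 18 were in both lists. U2 peaks had a median of 5.58 with 1 of 8 in both, U5 peaks 6.46 with 2 of 7, and both U4 peaks were in both lists, at 6.54 and 7.05. The U11 peak was at 6.46 in both lists and the U4atac peak at 4.7 in neither. Among snoRNA genes, peaks lay at 6 of 47 U3 genes (5.87 to 7.64), at Snord118, which encodes U8, at 8.52 in both lists, and at Snord13 at 5.87.

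Copies of these genes share sequence to differing degrees, so which copy a read came from is uncertain. The median share of 32-base words of the peak found at 1 place in mm9 was 1.89% for U1 peaks, 47.3% for U2, 77.0% for U5, 62.0% for all 44 snRNA peaks and 100% for all 581. The share was under 50% in 19 of the 44 snRNA peaks (43.2%), in 52 of the 581 (8.95%) and in 760 of all 5515 (13.8%). Of the 25 snRNA peaks with at least 50% of such words, 23 were downstream of the start and 10 were in both lists (40.0%). Of the 19 below 50%, all were downstream and 9 were in both (47.4%). The 7 peaks nearest ribosomal RNA genes had a median of 0%, and their signals ranged from 2.93 to 7.34. The authors' handling of reads that map to several places is not stated.

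**Figure D5:**
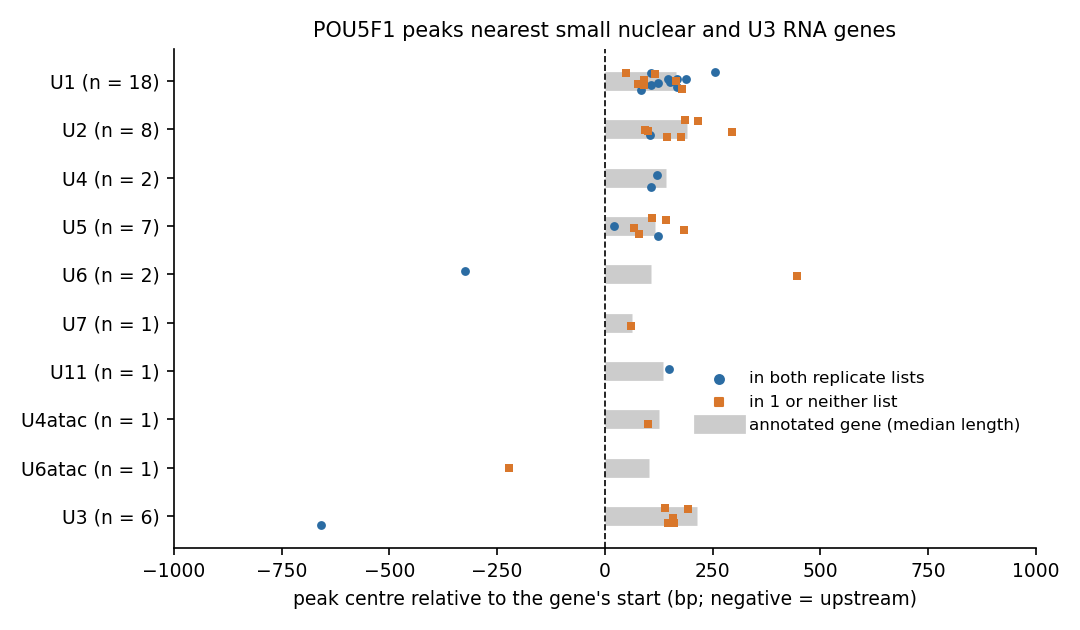
Position of each peak centre relative to the start of the nearest small nuclear or U3 RNA gene, in bp with negative values upstream, 1 row per gene family, with a grey bar for the median gene length and colour and shape for replicate support. The 35 peaks at U1, U2, U4 and U5 genes all lie between 0 and 300 bp after the start.

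The rule's limit cut through a continuous range of distances. The peaks just inside 1 kb were at Rbm14 (990 bp, signal 14.68), Gm13225 (988 bp, 4.29) and Gm17578 (970 bp, 4.16). Those just outside were at Gm17109 (1001 bp, 5.87), AL928544.1 (1002 bp, 4.11) and Zfp605 (1007 bp upstream, 4.52).

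The lists on the mm10 build came from the same libraries and were compared by gene symbol, with no conversion of coordinates. Of the 484 coding genes, 397 matched a RefSeq gene on GRCm38, the same assembly. An optimal peak, from the procedure that keeps peaks by irreproducible discovery rate (IDR), lay within 1 kb of the RefSeq start of 203 of them (51.1%, 95% interval 46.1 to 56.2%), against 1.66% of all 16676 matched coding genes. The share was 61 of 93 where the mm9 peak was in both replicate lists (65.6%), 131 of 258 where it was in that of replicate 2 only (50.8%) and 9 of 44 where it was in neither (20.5%). RefSeq gives fewer starts per gene than GENCODE, and the part of this in the shares was not tested.

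By rank in the relaxed mm10 lists of replicates 1 and 2, each of 300000 entries, the peak at Vamp1 was 1 and 1, at Rnf169 5 and 4, at Cnpy1 31 and 35, and at Acp6 14 and 29. Those at Zfp384, Ell and Ebi3 ranked 24 and 41, 53 and 43, and 42 and 51. The peaks at Crlf2 ranked 73 and 48, at 4930522L14Rik 1186 and 535, at Srrm4 90 and 86, and at Cdx2 1131 and 2865. At Mtf2, whose mm9 promoter peak was only at 4.41, the ranks were 61 and 79, with optimal and conservative peaks. Phc1 ranked 6094 and 1222 with both kinds of peak, and Jarid2 169170 and 20406 with neither. Whether the mm9 and mm10 peaks at Mtf2 are the same site was not tested. No optimal peak lay within 1 kb of the RefSeq start of Rbm14, Plekha4, Ttyh1, Hoxb1 or Esrrb. Of 1003 RefSeq snRNA genes, 14 had an optimal peak within 1 kb (1.4%). Among small RNA genes, Snord118 ranked 413 and 1278 and Rnu3a, a U3 gene, 1538 and 4330, both with optimal and conservative peaks, while the U1 gene Rnu1a1 ranked 1471 and 1715 with a conservative peak only. The other 4 U3 genes, Rnu3b1 to Rnu3b4, had neither an optimal nor a conservative peak, and each had an entry in 1 relaxed list only, at ranks from 51425 to 237578. The U1 genes Rnu1b1, Rnu1b2 and Rnu1b6 had no entry in either relaxed list within 1 kb.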

How the data were processed

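POU5F1 ChIP-seq was made in 2 biological replicates of 1 group. The authors deposited mm9 peak lists for each replicate and the whole series, with a signal and a −log10 p-value per peak (lowest 5.008), and mm10 lists that include IDR output. Aligner, caller, threshold, signal scaling and how replicates were combined are not given in the sources used here. The deposited values carry no replicate error, and no read counts were used, so depth is unknown. The labels name a control experiment, not analysed here. Every column of per-sample values was mapped to its sample.

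Distances, overlaps (at least 1 bp) and shares were computed with Python 3.11.15, numpy 2.4.6, pandas 2.3.3, scipy 1.17.1 and pysam 0.24.0. The reference was NCBIM37, which is mm9, with GENCODE M1 (95414 transcripts). Protein-coding and non-coding starts follow the gene's biotype. Motif windows of 200 bp were centred on each peak, or on each of 45947 coding starts. Mismatches allowed were 0 for the octamer, 2 for the composite and PORE, and 1 for MORE. Motif and distance code was tested on simulated data. Intervals are 95% Clopper-Pearson intervals for counting error only. No p-value is given, since 1 group offers no test between samples and peaks are not replicates. RefSeq starts on GRCm38 (mm10) were matched by symbol.

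The members and the 23 gene lists (1059 of 1060 symbols matched) were chosen with earlier results of these data known. Named genes were drawn from the 20 strongest promoter peaks, up to 4 per list (all pluripotency regulators), the 8 strongest with only non-coding starts, the 6 strongest between divergent genes, the 5 strongest per element, 3 in neither and 3 weakest in both replicate lists, 3 on each side of the limit, and Pou5f1, Sox2 and Nanog. Small RNA genes, the inverted POU pair and its sequences, and the uniqueness of 32-base words were added after the data had been seen. Alternatives covered distance, start set, overlap, −log10 p, motif window and mismatches, each replicate list alone and the conservative IDR list.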

Additional observations from a re-analysis of the deposited data

How the results depend on the processing

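No paired analysis was possible because the values come from no test between groups. The share of peaks at promoters was 7.62% within 0.5 kb, 15.7% within 2 kb, 7.18% for coding transcript starts and 4.77% where the interval covered a start. With at least 50% reciprocal overlap, 17.6% were in the replicate 1 list, 17.2% in both, and rho was 0.711. With a −log10 p of at least 10, the median signal was 6.75. The upstream share was 69.9% for coding transcript starts, 54.7% for outermost starts, and 55.0 to 58.2% from 1 replicate's list. Peaks with only non-coding starts made up 31.8% by transcript biotype, and 8.81% had starts on both strands within 0.5 kb. The octamer share was 9.81% in a 50 bp window on each side, 46.3% with 1 mismatch, and 10.1 to 11.7% from 1 replicate's list. For the composite these were 4.3%, 1.55% with 1 mismatch, 22.2% with 3, and 6.71 to 10.1%. Coding genes with a promoter peak made up 3.16% within 2 kb, and 0.536 to 2.47% from 1 replicate's list, the lower from replicate 1. With the conservative mm10 list, 35.0% of promoter-peak genes had a peak. The cause was not tested. As alternatives added after seeing the data, peaks nearest snRNA starts numbered 46 in the replicate 2 list, 20 in that of replicate 1 and 35 at −log10 p of at least 10. Downstream were 93.5% and 95% of those in the replicate 2 and replicate 1 lists, and 92.0% of snRNA peaks with at least 50% unique words. Each alternative was set against the 95% counting interval of the main value, or against a fixed band for rho and the snRNA count. Of those for the main results, 29 stayed inside and 24 moved outside. Of those for single motifs, gene lists and snRNA peaks, 100 stayed inside and 25 moved outside. In the replicate 1 list alone, 0 genes of the DNA methylation, LIF, Nodal, neuroectoderm and cytosolic ribosome lists had a promoter peak. Pluripotency regulators were at 16.0%, embryonic stem cell genes at 6.45%, Polycomb genes at 4.17%, histones at 1.49%, mitochondrial ribosomal proteins at 1.32% and Zfp genes at 0.541%, against 0.536% of all coding genes. Unknown depth limits all statements about absent peaks.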
